A study of Homo sapiens and Mus musculus with 24 samples.

Results

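The 10 genes described here encode plasma proteins of the acute-phase response and of complement. They are the fibrinogen chains FGA, FGB and FGG, the complement components C3, CFB and C2, and AGT, SERPINA1, TTR and AFP. They were taken by symbol: all 10 were found among the 58051 gene identifiers of the human count files, and 9 were found among the 29307 identifiers of the mouse files. No mouse gene carries the name Serpina1 alone, since the mouse holds several copies, which are given separately. RNA-seq was done on Caco-2 cells, a human colorectal carcinoma line with enterocyte features, and on EpCAM+ epithelial cells purified from the mouse colon. The Caco-2 groups were unedited cells (WT, 4 libraries), cells in which both isoforms of DNMT3A, a de novo DNA methyltransferase, were disrupted with CRISPR-Cas9 (ΔDNMT3A, 4 libraries), and such knockout cells that carried a TY1-tagged long (DNMT3A1, 3 libraries) or short (DNMT3A2, 4 libraries) isoform from a piggyBac vector under a CMV promoter. Another DNMT3A1 sample was not analysed here. The knockout line and both re-expression lines were expanded from single cells, the latter under puromycin, so that the state of DNMT3A, the clone and, for the re-expression lines, the vector and the selection cannot be told apart. The mouse groups were Dnmt3a fl/fl animals (4 libraries) and Dnmt3a ΔIEC animals (4 libraries), in which Cre driven by the Villin promoter removes the floxed exons of Dnmt3a from the intestinal epithelium. The floxed line was on a C57BL/6J background and the Cre line on C57BL/6JxSJL/J, the mice were adult and at steady state, and both groups carried the floxed allele. Nothing in the labels says whether the Caco-2 libraries of a group came from separate cultures, so that p-values there measure only the spread between libraries.

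Most plasma proteins of the acute-phase response are made by hepatocytes, where IL-6 acts through STAT3, and IL-1 through C/EBP and NF-kB factors, on promoters that liver factors such as HNF4 keep active. Intestinal epithelial cells make several of these proteins at lower levels, and Caco-2 cells are known for a fetal, partly liver-like programme. Fibrinogen, the precursor of the fibrin clot, is assembled from paired α, β and γ chains. C3 is the component on which all complement pathways converge, factor B and C2 are the homologous serine proteases of the alternative and the classical C3 convertase, AGT is the precursor of the angiotensins, SERPINA1 encodes α1-antitrypsin, TTR carries thyroid hormone and retinol-binding protein, and AFP is the albumin-like carrier of fetal plasma.

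Between 22104408 and 42161299 reads per library were counted on genes in the 15 Caco-2 libraries (median 30442451), and between 16943626 and 24921248 in the 8 mouse libraries (median 21312189). Levels are given as CPM, the reads of a gene scaled to a common library size after TMM normalisation, and the threshold for a call was an edgeR adjusted p of 0.05. DNMT3A itself stood at 64.6 ± 2.27 CPM (SD, n = 4) in WT, 20.7 ± 1.22 (n = 4) in ΔDNMT3A, 37.995 ± 1.23 (n = 3) in DNMT3A1 and 21.9 ± 1.40 (n = 4) in DNMT3A2. In the libraries labelled DNMT3A2 no rise of the targeted gene's counts over ΔDNMT3A was called (log2 fold change 0.07, standard error 0.0574, edgeR adjusted p = 0.272), although counts per gene do not separate reads of the introduced copy from those of the edited gene, and these libraries are called by their label in what follows. At the protein level, the study detected both re-expressed isoforms by immunoblot and in the nuclei by immunofluorescence. In ΔDNMT3A it reported the protein as completely lost by immunoblot and undetected by immunofluorescence. Protein was not analysed here, and counts per gene do not measure its loss. Dnmt3a fell from 93.9 ± 7.70 CPM (SD, n = 4) in fl/fl to 46.1 ± 3.30 (n = 4) in ΔIEC mice, where counts per gene include the exons that are not floxed. The summed level of 12 epithelial markers was 7861 to 12254 CPM over the Caco-2 libraries and 14044 to 20495 CPM over the mouse libraries. Caco-2 libraries also held 488 to 990.2 CPM of 12 hepatocyte markers, of which 11 or 12 had counts in each line.

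The promoters of the fibrinogen chains and of AFP are shown because the chains are parts of 1 protein and because AFP had the largest rise of any member in ΔDNMT3A against WT. The sequences are the 250 bases before the RefSeq start (GRCh38.p14), written 5′ to 3′ along the gene. Capitals mark matches on either strand to 5 motifs. The motif of the C/EBP factors, which respond to cytokines, was TTNNGCAA. The IL-6 response element known from fibrinogen promoters was searched for as CTGGGAA. The motif bound by activated STAT proteins was TTCNNNGAA, and that of NF-kB was GGGNNTTCC. The TATA box, at which transcription complexes assemble close to the start, was TATAAA. FGA lies on the minus strand at chr4:154590743-154590992, FGB on the plus strand at chr4:154562730-154562979 (the first of 2 annotated starts), FGG on the minus strand at chr4:154612657-154612906 and AFP on the plus strand at chr4:73435971-73436220.
FGA: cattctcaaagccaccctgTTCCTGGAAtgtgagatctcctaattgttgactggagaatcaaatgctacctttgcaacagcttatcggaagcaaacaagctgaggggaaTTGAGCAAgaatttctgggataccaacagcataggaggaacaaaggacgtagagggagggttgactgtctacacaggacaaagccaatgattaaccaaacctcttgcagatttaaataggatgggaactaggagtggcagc
FGB: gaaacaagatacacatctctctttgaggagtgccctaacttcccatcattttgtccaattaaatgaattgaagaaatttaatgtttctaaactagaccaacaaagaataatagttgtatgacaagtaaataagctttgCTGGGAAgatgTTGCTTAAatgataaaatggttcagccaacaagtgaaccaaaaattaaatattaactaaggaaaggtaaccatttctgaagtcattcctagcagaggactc
FGG: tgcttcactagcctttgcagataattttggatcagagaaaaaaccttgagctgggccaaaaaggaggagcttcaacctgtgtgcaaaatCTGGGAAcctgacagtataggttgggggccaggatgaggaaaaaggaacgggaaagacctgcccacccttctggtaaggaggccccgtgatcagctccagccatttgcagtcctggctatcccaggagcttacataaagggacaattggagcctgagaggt
AFP: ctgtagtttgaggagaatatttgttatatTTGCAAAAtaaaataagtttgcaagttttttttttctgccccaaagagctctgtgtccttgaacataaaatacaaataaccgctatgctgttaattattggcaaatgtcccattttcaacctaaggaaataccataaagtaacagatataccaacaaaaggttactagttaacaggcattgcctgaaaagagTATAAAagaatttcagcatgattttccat
Promoter sequences were given for 8 of the 10 genes, and those of C3 and TTR were not used here. The 8 genes had 11 such windows, since FGB, C2 and SERPINA1 had 2 starts each. Genes were counted once if any window matched, whereas the shares of all promoters are per window, so the units differ. TTNNGCAA was present before 3 of the 8 genes (FGA, FGB and AFP), against 9.05% of all 35116 promoters of the same length. CTGGGAA was present before FGB, FGG and AGT (9.15% of all promoters), TTCNNNGAA before FGA, CFB and AGT (6.57%), GGGNNTTCC before the second start of C2 (5.78%) and TATAAA before CFB, AGT and AFP (10.7%). These windows differed widely in CpG dinucleotides, the sites that DNMT3A can methylate. FGB held 0, AFP 1, and FGA and FGG 2 each, against a median of 11 over all promoters, whereas the first start of C2 held 38. Methylation was not analysed here.

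In WT cells the members covered a wide range of levels. To compare genes, CPM was divided by the exon length in kilobases, which gives RPKM. TTR led with 67.6 ± 1.53 RPKM (SD, n = 4), followed by FGA (65.4 ± 2.81), FGG (62.2 ± 2.24), AGT (56.1 ± 2.62), SERPINA1 (53.8 ± 2.65), FGB (28.1 ± 2.30) and AFP (15.2 ± 0.492). The complement genes stood far lower, with 1.76 ± 0.0687 RPKM for CFB, 0.6004 ± 0.0743 for C3 and 0.101 ± 0.0107 for C2. Among neighbours in this order, TTR and FGA, FGA and FGG, and AGT and SERPINA1 lay within one another's spread. Together the 10 genes held 0.120% ± 0.00458 (SD, n = 4) of all counts in WT, 0.106% ± 0.00553 (n = 4) in ΔDNMT3A, 0.204% ± 0.0150 (n = 3) in DNMT3A1 and 0.0576% ± 0.00174 (n = 4) in the libraries labelled DNMT3A2, and no 2 of these groups overlapped.

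**Figure D1:**
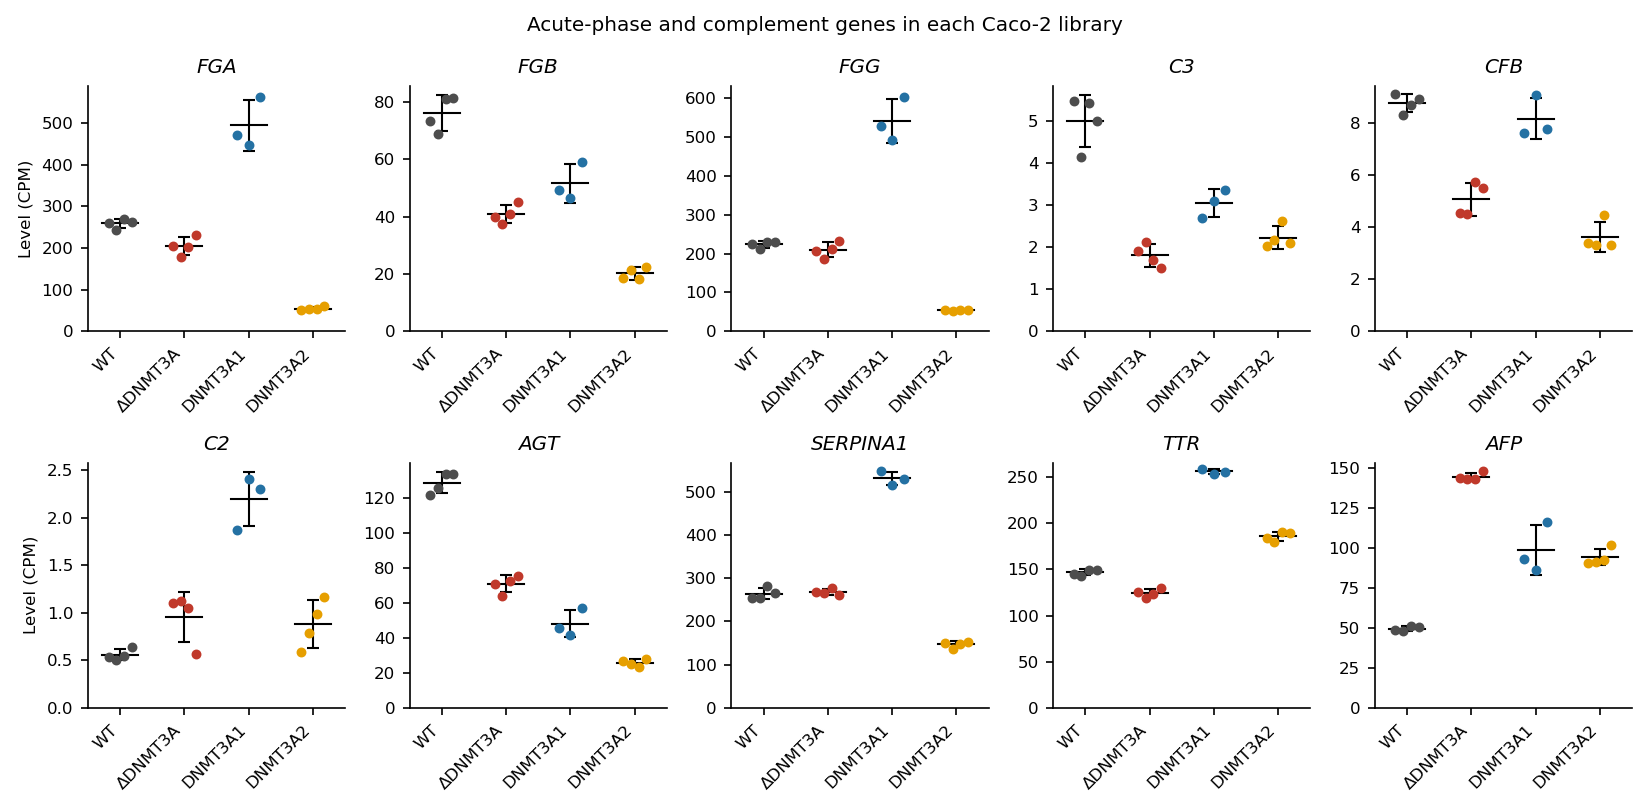
Level in CPM (linear axes from 0, one scale per gene) of the 10 genes in each of the 15 Caco-2 libraries; points are libraries, horizontal lines the means and error bars 1 SD. DNMT3A1 libraries lie highest for FGA, FGG, C2, SERPINA1 and TTR, and the libraries labelled DNMT3A2 lie lowest for FGA, FGB, FGG, CFB, AGT and SERPINA1.

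Most of these genes were lower in ΔDNMT3A than in WT. Against WT, 7 of the 10 genes were lower in ΔDNMT3A (31.0% of 16654 genes tested were lower) and 2 were higher (31.2%), with a median log2 fold change of -0.30 over the 10 genes and 0.00 over all genes. DNMT3A1 cells showed 8 genes higher than ΔDNMT3A (30.4% of 16860) and 2 lower (30.3%), with a median of 0.87. The libraries labelled DNMT3A2 showed 1 gene higher than ΔDNMT3A (33.8% of 16431) and 7 lower (34.1%), with a median of -0.75. Set against WT, DNMT3A1 had 6 genes higher (32.6% of 17029) and 3 lower (32.7%), and the libraries labelled DNMT3A2 had 3 higher (34.3% of 16360) and 7 lower (34.4%). Between the re-expression lines, 9 of the 10 genes were higher in DNMT3A1 (34.5% of 16637 genes) and 0 were lower (33.9%), with a median of 1.22, and the fitted log2 fold change was above 0 for 10 of 10. The median over all genes was 0.00 there. DESeq2 called 8 of the 10 genes in that comparison, against 10387 of all 32960 genes with a count. The larger set includes genes too low for the edgeR filter, which kept 16637, whereas all 10 members passed that filter. The 8 of 10 is therefore not comparable with the share over that set. An unadjusted edgeR p under 0.05 was found for 9 of the 10, and the share of all genes by that criterion is not given here. Comparisons that share WT or ΔDNMT3A libraries are not independent of each other. In each Caco-2 comparison over 60% of all genes tested were called, so a call for a single gene distinguishes it little from the rest, and the sizes are given below.

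**Figure D2:**
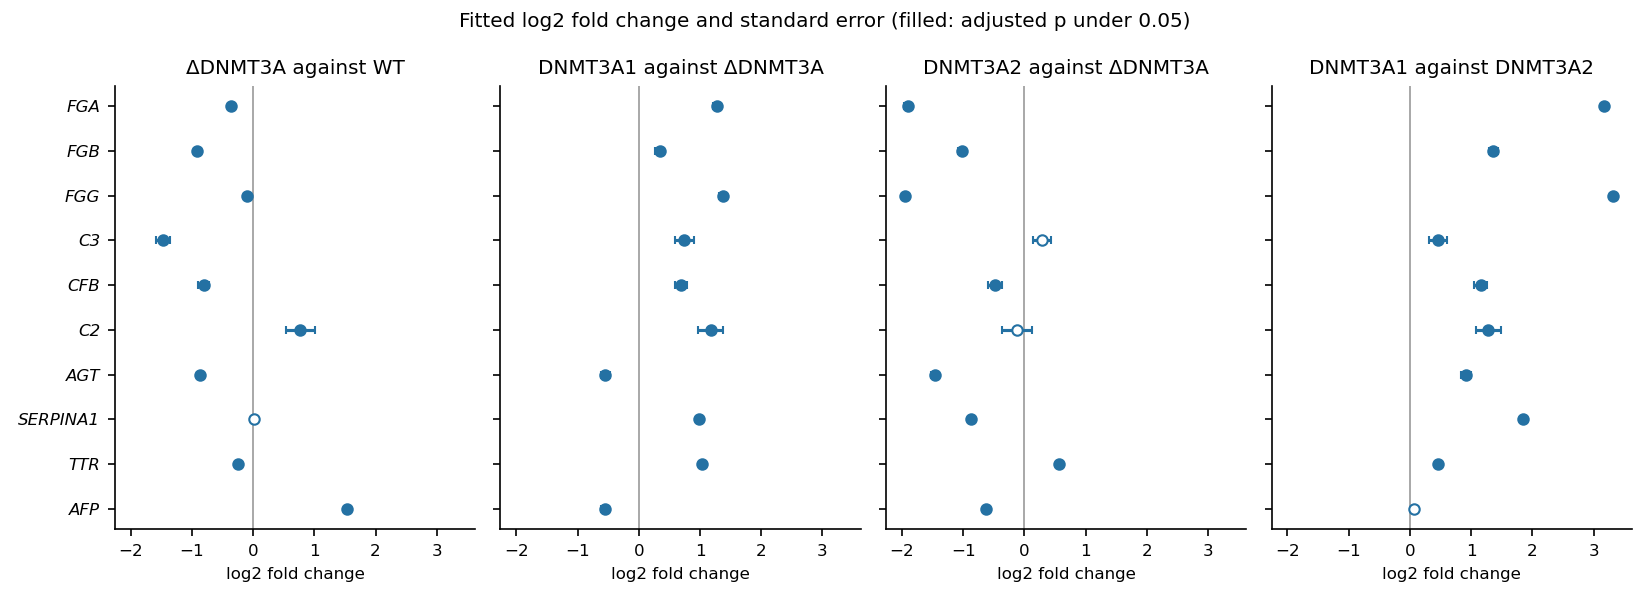
Fitted log2 fold change (x axis) of each gene in 4 Caco-2 comparisons, with bars of 1 standard error; filled points passed an adjusted p of 0.05 and open points did not. FGA and FGG lie at 3.18 and 3.31 in DNMT3A1 against DNMT3A2, while AFP, at 0.07, lies at the zero line there.

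The fibrinogen genes lie side by side on chromosome 4 (GRCh38), with FGB (ENSG00000171564) at chr4:154562956-154571086 on the plus strand, FGA (ENSG00000171560) at chr4:154583126-154590766 and FGG (ENSG00000171557) at chr4:154604134-154612967 on the minus strand. FGA, the α chain, was measured at 259, 243, 269 and 263 CPM in WT and at 204, 179, 202 and 232 CPM in ΔDNMT3A. It reached 472, 448 and 563 CPM in DNMT3A1 but only 51.4, 52.8, 54.5 and 59.8 CPM in the libraries labelled DNMT3A2. No 2 of these groups overlapped. Its log2 fold change was -0.35 in ΔDNMT3A against WT (standard error 0.0486, edgeR adjusted p = 8.89e-07), 1.28 in DNMT3A1 against ΔDNMT3A (standard error 0.0684, edgeR adjusted p = 3.62e-12) and -1.90 in the libraries labelled DNMT3A2 against ΔDNMT3A (standard error 0.0568, edgeR adjusted p = 1.04e-18). FGG, the γ chain, was measured at 224, 212, 229 and 229.9 CPM in WT, 207, 187, 212 and 234 CPM in ΔDNMT3A, 529, 494 and 604 CPM in DNMT3A1, and 55.2, 53.1, 54.5 and 55.9 CPM in the libraries labelled DNMT3A2. WT and ΔDNMT3A overlapped here, and the fitted difference of -0.11 (standard error 0.0437, edgeR adjusted p = 0.0381) did not pass with DESeq2 (adjusted p = 0.252), with all 4 lines in 1 edgeR fit (adjusted p = 0.0932) or without 1 of 6 libraries (WT 1, 3 or 4, or ΔDNMT3A 1, 2 or 3; edgeR adjusted p from 0.0510 to 0.233). Between the re-expression lines FGA was 9.05-fold and FGG 9.93-fold higher in DNMT3A1.

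FGB, the β chain, followed another course. It was measured at 73.2, 68.6, 81.1 and 81.3 CPM in WT, 39.7, 37.5, 41.05 and 45.2 CPM in ΔDNMT3A, 49.1, 46.3 and 59.1 CPM in DNMT3A1, and 18.6, 21.4, 18.1 and 22.6 CPM in the libraries labelled DNMT3A2. The 4 groups did not overlap, and DNMT3A1 stayed below WT (log2 fold change -0.56, standard error 0.0637, edgeR adjusted p = 2.37e-08) although FGA and FGG stood above it (0.93 and 1.27). Per kilobase, FGG exceeded FGB 2.22 ± 0.111-fold (SD, n = 4) in WT, 3.86 ± 0.0747-fold (n = 4) in ΔDNMT3A, 7.94 ± 0.216-fold (n = 3) in DNMT3A1 and 2.06 ± 0.221-fold (n = 4) in the libraries labelled DNMT3A2. The ratio of FGA to FGG stayed between 0.812 and 1.07 over all 15 libraries. In exact two-sided permutation tests of the log2 ratios, 15 of 18 differences between lines reached p = 0.0286, the smallest value these group sizes allow (0.0343 after Benjamini-Hochberg adjustment over the 18). The others were FGG to FGB in the libraries labelled DNMT3A2 against WT (exact p = 0.286), FGA to FGG in those libraries against ΔDNMT3A (exact p = 0.486) and FGA to FGG in DNMT3A1 against DNMT3A2 (exact p = 0.0857). The 50 nearest tested genes around FGG had a median log2 fold change of -0.13 in DNMT3A1 against DNMT3A2, with 12 higher and 22 lower, FGA and FGB counted among them.

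**Figure D3:**
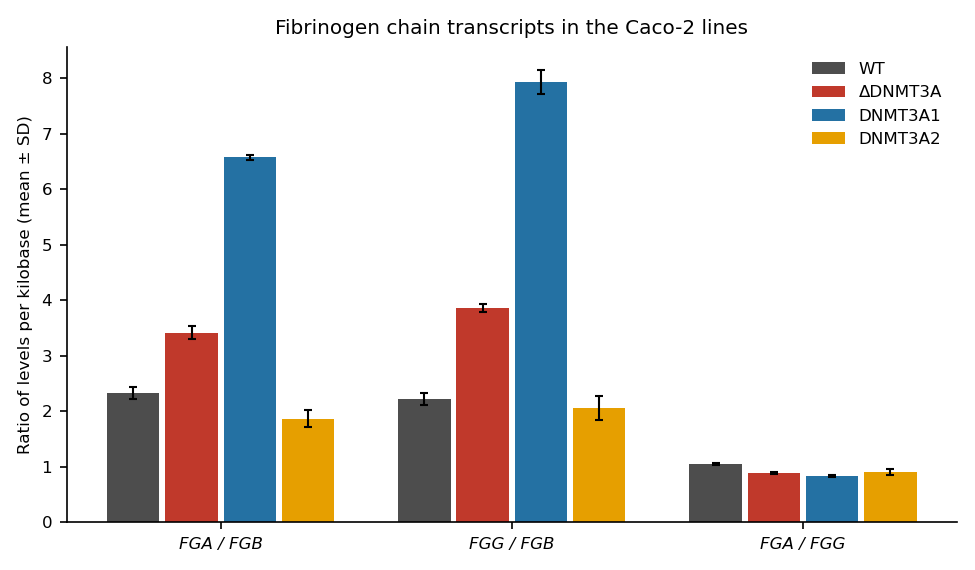
Ratio of the levels per kilobase of pairs of fibrinogen chains in the Caco-2 lines (linear axis from 0); bars are means over 4 libraries (3 for DNMT3A1) and error bars 1 SD. FGA and FGG rise against FGB from WT to ΔDNMT3A to DNMT3A1, while FGA and FGG stay near 1 to each other.

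Fibrinogen is cut by thrombin and cross-linked by factor XIII. Of 12 genes of clotting partners and fibrinogen relatives, 9 were tested in ΔDNMT3A against WT, where 0 rose and 6 fell by edgeR (DESeq2 called 6 in all), with a median log2 fold change of -0.50. F2, which encodes prothrombin, changed by -0.39 there (edgeR adjusted p = 3.09e-07), and FGL1, a fibrinogen-like liver protein, by -1.63 (edgeR adjusted p = 8.07e-08). Against ΔDNMT3A, 4 rose and 1 fell of 9 tested in DNMT3A1 (median 0.44), and 2 rose and 5 fell of 8 tested in the libraries labelled DNMT3A2 (median -0.16). FN1, the matrix and clot component fibronectin, was by far the most abundant of them and rose in both lines, by 0.84 and by 1.08 on the log2 scale.

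The complement genes were lower in level, and C3 and CFB were both lower in ΔDNMT3A than in WT. C3 (ENSG00000125730, chr19:6677704-6730562, minus strand) was measured at 5.46, 4.13, 5.42 and 4.99 CPM in WT and at 1.91, 2.13, 1.69 and 1.49 CPM in ΔDNMT3A, a log2 fold change of -1.47 (standard error 0.121, edgeR adjusted p = 1.57e-10) and the largest decrease among the 10 genes. DNMT3A1 libraries reached 2.69, 3.10 and 3.35 CPM, above every ΔDNMT3A library and below every WT library (log2 fold change 0.75 against ΔDNMT3A, standard error 0.151, edgeR adjusted p = 2.46e-04). The libraries labelled DNMT3A2 held 2.01, 2.17, 2.62 and 2.11 CPM and overlapped ΔDNMT3A (0.29, standard error 0.149, edgeR adjusted p = 0.0914). Without the second ΔDNMT3A library this difference was 0.37 with an adjusted p of 0.0435 by edgeR. DNMT3A1 lay above the libraries labelled DNMT3A2 by 0.46 (standard error 0.145, edgeR adjusted p = 0.00732), a call lost with DESeq2 (adjusted p = 0.0604) and without DNMT3A1 replicate 4 (0.37, edgeR adjusted p = 0.0535).

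CFB (ENSG00000243649, chr6:31945650-31952084, plus strand) was measured at 9.14, 8.33, 8.70 and 8.92 CPM in WT, 4.56, 4.53, 5.74 and 5.51 CPM in ΔDNMT3A, 7.65, 9.11 and 7.80 CPM in DNMT3A1, and 3.40, 3.32, 4.49 and 3.34 CPM in the libraries labelled DNMT3A2. The DNMT3A1 libraries overlapped WT (log2 fold change -0.11, standard error 0.0785, edgeR adjusted p = 0.217), and the other 2 groups lay below both. Against ΔDNMT3A, CFB was higher by 0.69 in DNMT3A1 (standard error 0.101, edgeR adjusted p = 6.35e-06) and stood at -0.47 in the libraries labelled DNMT3A2 (standard error 0.115, edgeR adjusted p = 9.36e-04). C2 (ENSG00000166278, chr6:31897785-31945672, plus strand), which lies next to CFB, was highest in DNMT3A1 instead. It held only 14 to 25 counts per library in WT (0.507 to 0.643 CPM) and 17 to 46 in ΔDNMT3A (0.565 to 1.12 CPM), against 57 to 82 in DNMT3A1 (1.87, 2.41 and 2.31 CPM) and 15 to 36 in the libraries labelled DNMT3A2 (0.592 to 1.17 CPM). DNMT3A1 lay above all other libraries, with log2 fold changes of 1.95 against WT (standard error 0.200, edgeR adjusted p = 3.61e-09) and 1.17 against ΔDNMT3A (standard error 0.204, edgeR adjusted p = 5.04e-05). The rise in ΔDNMT3A against WT was 0.77 (standard error 0.236, edgeR adjusted p = 0.00657), with groups that overlapped. Annotated exons of other genes on the same strand, among them a transcript that reads through both genes (ENSG00000244255), cover 45.5% of the exon bases of CFB and 33.3% of those of C2. Reads on shared bases count for neither gene in the default setting of the counter, so both levels may be understated.

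Of 22 other genes of complement activation, only 6 to 9 had enough counts to be tested in a given Caco-2 comparison. In ΔDNMT3A against WT, 3 rose and 1 fell of 6 tested (median 0.15), led by C1S and C1R, the proteases of the C1 complex, with 1.55 and 1.49 on the log2 scale (edgeR adjusted p = 1.00e-15 and 1.32e-13), while MBL2, the lectin that starts the lectin pathway, fell by 1.35 (edgeR adjusted p = 7.69e-09). In the libraries labelled DNMT3A2 against ΔDNMT3A 1 rose and 4 fell of 6 tested (median -1.29), with C1R at -2.84 and C1S at -2.39. In DNMT3A1 against ΔDNMT3A 2 rose and 2 fell of 9 tested (median 0.35). C5, the component cleaved after C3, rose from 11.7 to 64.6 CPM (log2 fold change 2.47, edgeR adjusted p = 2.70e-17), and between the re-expression lines it was higher by 2.57 in DNMT3A1. Of 19 genes of complement control, 10 were tested in each Caco-2 comparison. In ΔDNMT3A against WT 5 rose and 5 fell (median 0.07), in DNMT3A1 against ΔDNMT3A 4 rose and 4 fell (median 0.23), and in the libraries labelled DNMT3A2 against ΔDNMT3A 2 rose and 5 fell (median -0.42). CFI, the protease that inactivates C3b, fell from 3.69 CPM in WT to 1.85 in ΔDNMT3A (-1.02) and to 0.674 in DNMT3A1 (-1.46 against ΔDNMT3A). VTN, which encodes vitronectin, an inhibitor of the terminal pathway, rose from 591 to 1284 CPM in ΔDNMT3A (1.11), stood at 649 CPM in DNMT3A1 and at 235 CPM in the libraries labelled DNMT3A2. CD46 and CD55, the membrane regulators that inactivate C3 convertases on the cell's own surface, moved by less: in ΔDNMT3A against WT by -0.32 and -0.26.

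**Figure D4:**
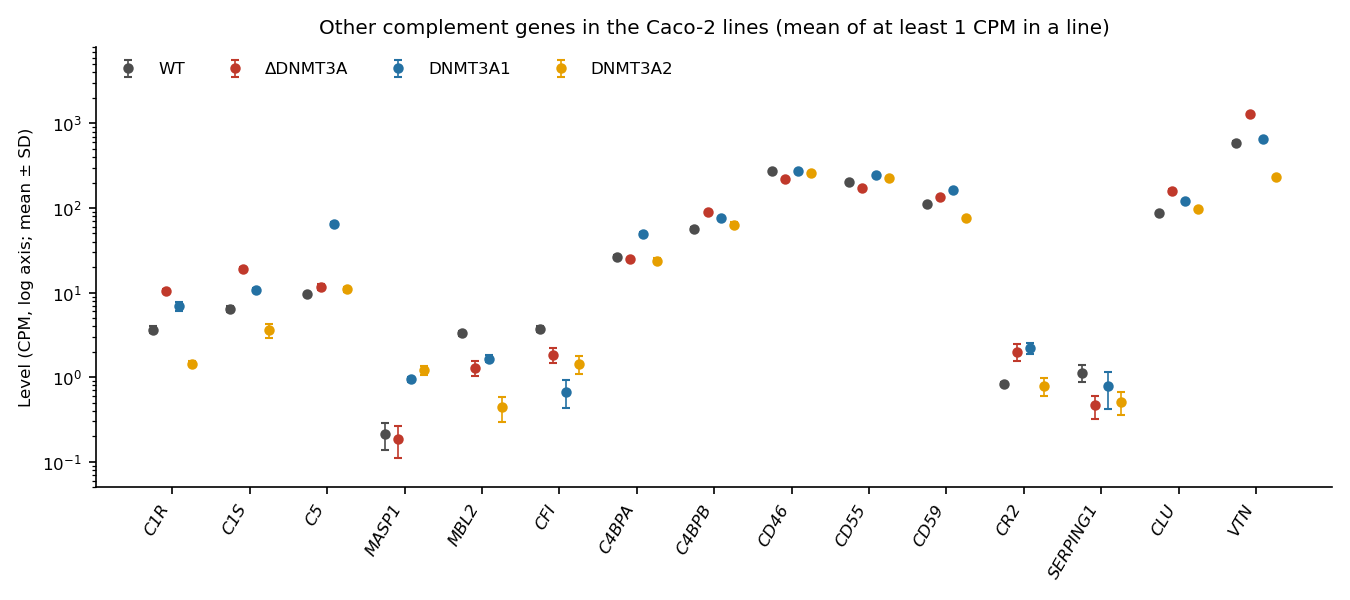
Mean level in CPM (log axis) of 15 other complement genes with a mean of at least 1 CPM in a Caco-2 line; points are means over 4 libraries (3 for DNMT3A1) and error bars 1 SD. C5 stands at 64.6 CPM in DNMT3A1 against 9.67 to 11.7 CPM in the other lines, and VTN falls to 235 CPM in the libraries labelled DNMT3A2.

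AGT (ENSG00000135744, chr1:230702523-230714297, minus strand) was highest in WT and was not raised in either re-expression line. It was measured at 121, 125, 134 and 133 CPM in WT, 70.9, 64.0, 72.5 and 75.5 CPM in ΔDNMT3A, 45.8, 41.6 and 56.9 CPM in DNMT3A1, and 26.6, 24.8, 23.1 and 28.1 CPM in the libraries labelled DNMT3A2, without overlap between any pair of groups. Its log2 fold change was -0.87 in ΔDNMT3A against WT (standard error 0.0407, edgeR adjusted p = 3.86e-15), -0.55 in DNMT3A1 against ΔDNMT3A (standard error 0.0752, edgeR adjusted p = 2.78e-06) and -1.47 in the libraries labelled DNMT3A2 against ΔDNMT3A (standard error 0.0526, edgeR adjusted p = 3.53e-17). Against WT the libraries labelled DNMT3A2 held 5.05-fold less AGT, the largest decrease of any member in that comparison. Of 13 other genes of the renin-angiotensin system, 7 were tested in ΔDNMT3A against WT, where 3 rose and 3 fell (median 0.10). Renin, the enzyme that cleaves AGT, and the angiotensin receptor gene AGTR1 had too few counts to be tested in any Caco-2 comparison. ENPEP, which encodes the aminopeptidase that converts angiotensin II, fell by 1.52 in ΔDNMT3A and rose by 1.61 in DNMT3A1 against ΔDNMT3A, where 3 rose and 1 fell of 7 tested (median -0.09). ANPEP, another angiotensin-trimming aminopeptidase, fell by 1.47 in DNMT3A1 and by 2.51 in the libraries labelled DNMT3A2, where 2 rose and 3 fell of 7 tested (median 0.14).

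SERPINA1 (ENSG00000197249, chr14:94376747-94390693, minus strand), the inhibitor of neutrophil elastase, was alike in WT and ΔDNMT3A within the spread. It was measured at 253, 255, 281 and 267 CPM in WT and at 268, 265, 278 and 260.3 CPM in ΔDNMT3A (log2 fold change 0.01, standard error 0.0313, edgeR adjusted p = 0.807). DNMT3A1 libraries held 547, 516 and 529 CPM, above all others, and the libraries labelled DNMT3A2 held 149.6, 136, 149 and 153 CPM, below all others. Against ΔDNMT3A the log2 fold change was 0.99 in DNMT3A1 (standard error 0.0316, edgeR adjusted p = 1.29e-15) and -0.87 in the libraries labelled DNMT3A2 (standard error 0.0292, edgeR adjusted p = 1.01e-17). The genes around SERPINA1 on chromosome 14 moved as well. Of its 50 nearest tested genes, 36 were higher and 2 lower in DNMT3A1 against ΔDNMT3A (median 0.43), 39 higher and 2 lower in DNMT3A1 against WT (median 0.56), and 43 higher and 1 lower in DNMT3A1 against DNMT3A2 (median 0.64), where 34.5% of all genes were higher. Around the other 9 genes the neighbours' median stayed between -0.14 and 0.18 in DNMT3A1 against DNMT3A2 or ΔDNMT3A. Some of their neighbours shifted in other comparisons. In the libraries labelled DNMT3A2 against WT, 6 were higher and 29 lower around CFB (median -0.20) and around C2 (-0.22). Against ΔDNMT3A these libraries had 31 higher and 10 lower around FGG (0.23), which itself was lower. Around AGT, 9 were higher and 23 lower in ΔDNMT3A against WT (-0.13). The part of these regional shifts in the members' values was not tested. SERPINA10, a relative in the same cluster of inhibitor genes, rose by 1.25 in DNMT3A1 against ΔDNMT3A (edgeR adjusted p = 3.03e-12).

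TTR (ENSG00000118271, chr18:31591726-31599021, plus strand) and AFP (ENSG00000081051, chr4:73431138-73456174, plus strand), a negative acute-phase gene and a fetal one, each took a course of their own. TTR was measured at 145, 143, 149 and 149.96 CPM in WT, 126, 119, 123 and 129.8 CPM in ΔDNMT3A, 259, 254 and 256 CPM in DNMT3A1, and 184, 180.2, 191 and 189.8 CPM in the libraries labelled DNMT3A2, with no overlap between groups. It was the one member that was higher than ΔDNMT3A in both re-expression lines and passed the test in both, by 1.04 in DNMT3A1 (standard error 0.0314, edgeR adjusted p = 5.56e-16) and by 0.57 in the libraries labelled DNMT3A2 (standard error 0.0283, edgeR adjusted p = 1.50e-14). AFP was measured at 48.5, 47.7, 51.3 and 50.3 CPM in WT and at 144, 143, 143 and 148 CPM in ΔDNMT3A, a 2.89-fold rise (log2 fold change 1.53, standard error 0.0310, edgeR adjusted p = 4.63e-22) and the largest among the 10 genes in that comparison. It fell to 92.9, 86.4 and 116 CPM in DNMT3A1 and to 90.7, 91.3, 92.6 and 101 CPM in the libraries labelled DNMT3A2, which overlapped each other (log2 fold change 0.07, standard error 0.0620, edgeR adjusted p = 0.298). Both lines lay between ΔDNMT3A and WT, with -0.55 (DNMT3A1) and -0.62 (labelled DNMT3A2) against ΔDNMT3A. Of 18 other genes of fetal liver and of negative acute-phase proteins, 14 were tested. In ΔDNMT3A against WT 3 rose and 5 fell (median 0.00), in DNMT3A1 against ΔDNMT3A 7 rose and 3 fell (median 0.40), and in the libraries labelled DNMT3A2 against ΔDNMT3A 5 rose and 7 fell (median -0.22). ALB, which encodes albumin and lies in the same gene family cluster as AFP, did not follow it: its log2 fold change was 0.05 in ΔDNMT3A against WT and 2.60 in DNMT3A1 against ΔDNMT3A (edgeR adjusted p = 0.579 and 2.40e-14). ZHX2 and ZBTB20, known repressors of AFP in the postnatal liver, stood at -0.03 and 0.36 in ΔDNMT3A against WT, and at 0.87 and 0.35 in DNMT3A1 against ΔDNMT3A.

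Classical positive acute-phase proteins outside the 10 genes did not share one direction. Of 20 such genes in the human files, 9 were tested in ΔDNMT3A against WT, where 2 rose and 6 fell (median -0.59). In DNMT3A1 against ΔDNMT3A 6 rose and 1 fell of 10 tested (median 0.59), and in the libraries labelled DNMT3A2 against ΔDNMT3A 5 rose and 1 fell of 10 tested (median 0.52). CP, the copper carrier ceruloplasmin, fell by 2.35 in ΔDNMT3A and was higher by 3.08 in DNMT3A1 and by 1.42 in the libraries labelled DNMT3A2. ORM1 and ORM2, the orosomucoids, and PTX3, a pentraxin, were higher in the libraries labelled DNMT3A2 than in ΔDNMT3A, by 1.70, 2.35 and 1.73, and ran against fibrinogen there: in DNMT3A1 against DNMT3A2 they stood at -1.08, -1.28 and -2.90. Over that comparison 2 of 10 tested were higher and 3 lower (median 0.00).

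The known regulators of these genes were examined as well. Of 17 genes of IL-6, IL-1 and C/EBP signalling, 15 were tested. In ΔDNMT3A against WT 7 rose and 5 fell (median 0.05), in DNMT3A1 against ΔDNMT3A 5 rose and 4 fell (median -0.08), and in the libraries labelled DNMT3A2 against ΔDNMT3A 3 rose and 8 fell (median -0.23). IL6R, the receptor chain that binds IL-6, rose from 1.49 to 16.9 CPM in ΔDNMT3A (log2 fold change 3.50, edgeR adjusted p = 1.55e-20), while IL6ST, the shared signalling chain, changed from 678 to 584 CPM (-0.23). CEBPB was higher in the libraries labelled DNMT3A2 than in ΔDNMT3A by 0.99 and CEBPD stood at -0.59, and in DNMT3A1 against DNMT3A2 they stood at -0.83 and 1.15. Of 18 liver and gut transcription factors, 16 were tested. In ΔDNMT3A against WT 3 rose and 9 fell (median -0.16), in DNMT3A1 against ΔDNMT3A 6 rose and 4 fell (median 0.04), and in the libraries labelled DNMT3A2 against ΔDNMT3A 6 rose and 6 fell (median 0.00). HNF4A, which drives many hepatocyte genes, stood at -0.18 in ΔDNMT3A against WT and at -0.01 in DNMT3A1 against DNMT3A2. PROX1 stood at 5.27 and NR5A2 at -2.23 in the libraries labelled DNMT3A2 against ΔDNMT3A, the former from 0.427 to 16.2 CPM. The hepatocyte markers as a list had 6 higher and 1 lower of 8 tested in DNMT3A1 against ΔDNMT3A and 4 higher and 3 lower of 8 in the libraries labelled DNMT3A2, and their summed level was 488 to 556 CPM in ΔDNMT3A, 678 to 766 in WT, 785 to 850.0 in the libraries labelled DNMT3A2 and 914 to 990.2 in DNMT3A1. Without APOA2, the most abundant of these markers, the sums in ΔDNMT3A (214 to 251 CPM) and WT (227 to 269) overlapped, and those in the libraries labelled DNMT3A2 (304 to 340) and in DNMT3A1 (442 to 522) stayed above them. Most of the remaining sum was again a single gene in WT and in the libraries labelled DNMT3A2. AHSG alone had a mean of 206 CPM in the former and 282 CPM in the latter. Epithelial markers were lower in 11 of 11 tested in the libraries labelled DNMT3A2 against ΔDNMT3A, where 34.1% of all genes were lower. In ΔDNMT3A against WT 7 of them were higher and 1 lower, with sums of 11606 to 12254 CPM against 9097 to 9349 in WT. In DNMT3A1 against ΔDNMT3A 3 were higher and 6 lower. Against WT, the libraries labelled DNMT3A2 had 1 higher and 8 lower. The part of either list's shift in the members' values was not tested.

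The genes whose course over the 4 lines was most like that of a member were sought among 13759 genes, as the root mean square difference of centred mean log2 CPM. This is a description over 4 line means. FGG was number 2 in the order from FGA, and FGA number 3 in the order from FGG (0.125), while FGB was only number 274 in the order from FGA (0.691). Nearest to FGA was CYP2U1 (0.111), to FGG RECK (0.0795), to FGB MATCAP2 (0.0611), to AGT CCND2 (0.122), to C2 SRRM3 (0.101), to C3 PPP2R3A (0.0821), to CFB TP53I11 (0.0441), to SERPINA1 LINC02028 (0.0431), to TTR PNRC1 (0.0257) and to AFP IFIT2 (0.0596).

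In the mouse colon, 4 of the 9 genes were at or near 0. Fga and Fgg had 0 counts in all 8 libraries and Fgb had at most 1, which at 3 counts allows a level of up to 0.121 to 0.185 CPM per library, for counting error only. Afp had 0 to 3 counts. The copies Serpina1a, Serpina1c, Serpina1d and Serpina1e had 0 counts throughout, and Serpina1b had at most 2. The other 5 genes passed the filter on low counts. Of these, 2 were higher in ΔIEC than in fl/fl (0.602% of 14626 genes tested were higher) and 0 were lower (0.0889%) by edgeR, with a median log2 fold change of 0.46 (-0.0036 over all genes), and DESeq2 called 3. Over all genes DESeq2 called 352 of 22431 with a count. That set includes genes too low for the edgeR filter, which kept 14626, the 5 members among them. An unadjusted edgeR p under 0.05 was found for 3 of the 5, and 5 of 5 fitted values were above 0. The shares of all genes by these last criteria are not given here. The values of C3 and Ttr changed sign when certain libraries were left out.

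C2 (chr17:34862604-34898265, GRCm38) was measured at 1.66, 0.682, 1.40 and 1.21 CPM in fl/fl and at 3.06, 3.34, 3.03 and 2.96 CPM in ΔIEC, without overlap (log2 fold change 1.31, standard error 0.239, edgeR adjusted p = 0.0376). Agt (chr8:124556534-124569706) was measured at 3.60, 4.15, 3.06 and 3.84 CPM in fl/fl and at 7.46, 9.08, 8.77 and 6.37 CPM in ΔIEC, likewise without overlap (log2 fold change 1.11, standard error 0.167, edgeR adjusted p = 0.0133). Both calls were near the threshold: when 1 library was left out, C2 stayed past it only without fl/fl replicate 2, and Agt was lost without fl/fl replicate 1, ΔIEC replicate 2 or ΔIEC replicate 3 (edgeR adjusted p from 0.0562 to 0.0616). The log2 fold changes then ran from 1.12 to 1.47 for C2 and from 1.03 to 1.20 for Agt. Cfb (chr17:34856374-34862518) was measured at 8.17, 8.24, 7.09 and 8.01 CPM in fl/fl and at 10.2, 11.8, 10.3 and 10.9 CPM in ΔIEC. The groups did not overlap, but the difference of 0.46 (standard error 0.117) missed the threshold with edgeR (adjusted p = 0.155) and passed it with DESeq2 (adjusted p = 0.0334). C3 ranged from 3.41 to 9.50 CPM in fl/fl and from 5.52 to 11.4 CPM in ΔIEC, and Ttr from 6.08 to 14.6 CPM and from 5.13 to 14.3 CPM, with overlap in both (log2 fold changes 0.15 and 0.05, edgeR adjusted p = 0.877 and 0.965). Mouse reads were counted without strand. An annotated transcript that spans C2 and Cfb (Gm20547) covers 79.5% of the exon bases of Cfb and 42.8% of those of C2. It had 0 counts in the libraries, but reads on shared bases count for no gene, so this does not show that it is silent. Exons of Zbtb12 on the opposite strand, a gene with at most 84 counts, overlap 4.16% of the exon bases of C2. Both levels may be understated, as in the human files.

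**Figure D5:**
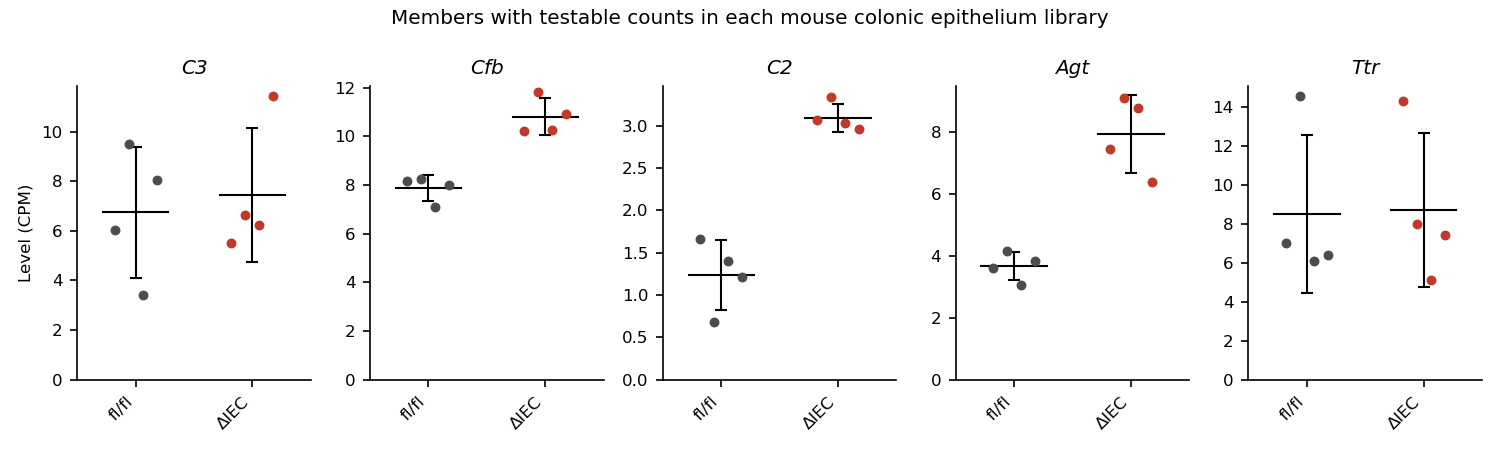
Level in CPM (linear axes from 0, one scale per gene) of the 5 genes with enough counts in each of the 4 fl/fl and 4 ΔIEC libraries of mouse colonic epithelium; points are libraries, horizontal lines means and error bars 1 SD. ΔIEC libraries lie above all fl/fl libraries for Cfb, C2 and Agt and overlap them for C3 and Ttr.

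Since complement genes are also expressed by leukocytes and stromal cells, markers of both were counted in the mouse libraries. The leukocyte list held 16 symbols under 17 identifiers, since Itgam has 2, of which 16 and 15 had counts in the 2 groups. They summed to 54.2 to 73.6 CPM in fl/fl and 51.7 to 73.1 CPM in ΔIEC, but Kit alone made up 81.9% to 87.5% and 79.1% to 84.0% of these sums. Without Kit, a step chosen after seeing the data, the other 16 identifiers summed to 7.77 to 13.2 CPM in fl/fl and 10.8 to 12.2 CPM in ΔIEC. The 12 genes of stroma and endothelium summed to 30.3 to 35.6 CPM in fl/fl and 22.2 to 30.0 CPM in ΔIEC, ranges that did not overlap, whereas without the most abundant of them, Pdgfrb, they overlapped (18.4 to 26.1 and 16.1 to 21.0 CPM). Hepatocyte markers summed to 96.8 to 121 CPM and 77.9 to 113 CPM, of which Tat made up 51.3% to 85.9% and 69.6% to 88.2%. By edgeR 0 of 30 marker genes tested were called (5 at an unadjusted p under 0.05), although Ptprc, which encodes the pan-leukocyte protein CD45, was at 1.85 CPM in fl/fl and 4.08 CPM in ΔIEC (log2 fold change 1.13, edgeR adjusted p = 0.0642). The part of these cells in the values was not tested, and in bulk samples a change in the share of a cell type and a change of RNA per cell cannot be told apart. Of the other genes of these systems, edgeR called 0 of 5 tested for complement activation, 0 of 3 for complement control, 0 of 6 positive acute-phase genes, 0 of 7 of fetal liver and negative acute-phase genes, 0 of 13 of IL-6 and C/EBP signalling, 0 of 16 transcription factors and 0 of 9 clotting partners. Of these 59 entries 4 had an unadjusted p under 0.05. DESeq2 called 1 transcription factor. By edgeR the transcription factor nearest the threshold, picked after its values were seen, was Zbtb20, known as a repressor of Afp in liver, at 58.8 CPM in fl/fl and 42.7 CPM in ΔIEC (log2 fold change -0.46, edgeR adjusted p = 0.136).

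For the genes that could be tested in both systems, the fitted values are set side by side. In ΔDNMT3A against WT and in ΔIEC against fl/fl, respectively, the log2 fold change was -0.87 and 1.11 for AGT, -0.81 and 0.46 for CFB, 0.77 and 1.31 for C2, -1.47 and 0.15 for C3 and -0.25 and 0.05 for TTR. The difference between the systems was not tested.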

How the data were processed

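RNA-seq counts of 15 Caco-2 and 8 mouse colonic epithelium libraries were analysed. The authors trimmed reads with Trim Galore 0.4.4, aligned them with STAR 2.5.2b and deposited raw read counts per gene; the file headers name featureCounts 1.5.2 (human, reverse strand) and 1.6.4 (mouse, no strand). Counting on gene annotation with overlapping genes leaves shared reads uncounted. Human identifiers were given symbols from a table of gene names (98.1% matched). Groups came from the labels. Each comparison was fitted with edgeR 4.0.16 (R 4.3.3) on the 2 groups concerned: filterByExpr, TMM, quasi-likelihood F test, and Benjamini-Hochberg adjustment over all genes tested, called at 0.05. CPM used TMM library sizes, and RPKM the deposited exon length. A group was called undetected at 3 counts or fewer in every library. Intervals and floors cover counting error only.

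The 10 genes and all gene lists were chosen with earlier results of these data known, so the lists are descriptions. Some genes stand in 2 lists. Members are named throughout; from a list, at most 5 genes past the threshold with the largest change in a comparison, and genes with a known role towards a member, are named. CD46 and CD55, F2, FN1 and HNF4A fall under the latter. Neighbours are the 25 tested genes on each side. Alternatives were DESeq2 1.42.0, DESeq2 size factors or upper quartile scaling in edgeR, no filter, the replicate number as a block, all Caco-2 groups in 1 fit, a log2 fold change of at least 1, and each library left out. The fit was tested on simulated counts: with 200 genes changed by 1 on the log2 scale, 93.4% were recovered in ΔDNMT3A against WT (16438 genes) and 73.7% in ΔIEC against fl/fl (14474 genes), and 8.46% and 3.95% of the calls were false, the former above the 5% aimed at. In the data themselves 10367 of 16654 genes were called in ΔDNMT3A against WT, so the simulated rates need not hold for the Caco-2 calls. Motif matches were letter searches. The mouse list of the renin-angiotensin system and 1 motif are not reported here.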

Additional observations from a re-analysis of the deposited data

Results flagged for a closer look

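In 4 of 40 groups of 4 libraries, 1 library of a member lay far from the others, where chance gives about 1 in 20. CFB stood at 4.49 CPM in replicate 3 of the libraries labelled DNMT3A2, and C2 at 0.565 CPM in ΔDNMT3A replicate 4. Ttr stood at 14.6 CPM in fl/fl replicate 2, and AFP at 148 CPM in ΔDNMT3A replicate 4. Between the systems, CFB had a log2 fold change of 0.46 in ΔIEC against fl/fl and -0.81 in ΔDNMT3A against WT, and AGT had 1.11 and -0.87, with every library of the treated group on opposite sides of its controls. The difference between the systems was not tested.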

How the results depend on the processing

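With a log2 fold change of at least 1 required, the members called numbered 2 in ΔDNMT3A against WT, 4 in DNMT3A1 and 4 in DNMT3A2 against ΔDNMT3A, 4 in DNMT3A1 and 6 in DNMT3A2 against WT. The share of all genes that pass this cutoff is not given here, so these counts cannot be set against it. Leaving out 1 library gave 8 to 9, 10 to 10, 8 to 9, 9 to 9 and 9 to 10 members called. These ranges follow the order above of the comparisons against WT or ΔDNMT3A. The range was 8 to 10 in DNMT3A1 against DNMT3A2, and 0 to 2 in ΔIEC against fl/fl. In the same fits 9442 to 11179 of all genes were called in the Caco-2 comparisons, with 16321 to 17386 tested. In the mouse comparison 45 to 126 were called, with 14660 to 14804 tested. Over all genes, ΔIEC against fl/fl had 101 calls with edgeR (88 higher) and 352 with DESeq2 (237 higher). The replicate block left 9, 10, 8, 9, 10 and 9 members called in the Caco-2 comparisons, and same-numbered libraries did not pair (correlations of deviations from -0.0582 to 0.0676). Of 935 alternative member values, 869 kept direction and side of the threshold. Values that changed sign had not passed the test: SERPINA1 in ΔDNMT3A against WT (-0.01158, -0.009986 and -0.004276 without WT 1, WT 2 or ΔDNMT3A 3, up to 0.03808), C2 in DNMT3A2 against ΔDNMT3A (0.03442 without DNMT3A2 1, down to -0.2891), AFP in DNMT3A1 against DNMT3A2 (-0.06903 without DNMT3A1 4, and 0.16 with adjusted p = 0.0111 by edgeR without DNMT3A1 2), C3 in ΔIEC (-0.07299 without fl/fl 3, -0.1383 without ΔIEC 4, up to 0.3515) and Ttr in ΔIEC (-0.03116, -0.07805, -0.0697 and -0.3002 without fl/fl 1, fl/fl 3, fl/fl 4 or ΔIEC 1, up to 0.4354). The rise of C2 in DNMT3A2 against WT was lost with DESeq2 (adjusted p = 0.0978) and without DNMT3A2 3 or 4. The cause was not tested. C2 and C3 rest on few counts.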
